A study of Rattus norvegicus with 2 samples.

Results

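The nuclear genes of the mitochondrial oxidative phosphorylation complexes were compared between RMT-1 cells given an siRNA against Pla2g4c and the same line given a non-targeting one, called control cells below. Members were the genes whose current rat symbol begins with Nduf, Uqcr, Cox4 to Cox8 or Atp5, together with Sdha, Sdhb, Sdhc and Sdhd, and whose RefSeq transcript was named by a gene probe. The rule found 83 genes among 15159 named genes on the array, 82 of them protein-coding and 1 a transcribed pseudogene, Cox6c-ps1. Of the 82, 80 were measured on both arrays, meaning that all spots of at least 1 probe were well above background on each, against 9026 measured genes in all.

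The first group was RMT-1 clone E4 cells, a rat mammary tumour line, transfected with Pla2g4c siRNA. The second was the same clone with a negative control siRNA. Both were grown in RPMI-1640 medium with fetal bovine serum, and the siRNA dose and the time of harvest are not given in the sources used here. Total RNA was labelled with Cy3 and hybridised to 1 array per group, so no replicate check and no test were possible, and every statement below describes these 2 arrays of 1 clone.

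Oxidative phosphorylation is carried out in the inner mitochondrial membrane. Complexes I to IV pass electrons from NADH and succinate to oxygen and, except for complex II, pump protons, and complex V uses the proton gradient to make ATP. Most subunits are encoded in the nucleus and imported, while a few core subunits of every complex but II are encoded in mitochondrial DNA and lie outside the rule. In tumour cells the same complexes also take part in mitochondrial routes to apoptosis, the process named in the title of the series.

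Values are processed scanner signals divided by the 75th percentile of the array's gene spots, called scaled signals below. Differences are log2 of the Pla2g4c siRNA array over the control array, and each ± carries over the scanner software's own error estimate for the signals, so it says nothing of how far separate cultures would differ. In bulk RNA, fewer cells of a type and less RNA per cell cannot be told apart. For members this error had a median of 0.20. A difference of at least 1.5-fold (0.58 on the log2 scale) was counted as called.

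The 75th percentile of the signal was 1105 for Pla2g4c siRNA cells and 852 for control cells, with 63.1% and 61.9% of gene spots well above background. No probe matched Pla2g4c, so the labels were not checked by the targeted transcript. Of 9 mammary epithelial markers 8 were measured, and their signals spanned a wide range. The brightest was Krt14, a basal keratin, at a scaled signal of 176.2 in Pla2g4c siRNA cells and 345.1 in control cells (-0.97 ± 0.20). Krt19 had 0.23 and 0.28 and Krt8 had 0.06 and 0.03, while Krt18 was not measured on both arrays. The measured epithelial markers differed in both directions and by more than most members. At least 1.5-fold lower were 4 (Krt5 -1.72, Krt17 -1.63, Krt14 and Cdh1 -0.63), and 2 were higher (Epcam 1.03 and the dim Krt8 0.86). Their part in the members' values was not tested. Of the markers of other cell types with a probe, 2 of 7 for leukocytes, 1 of 4 for endothelium, 0 of 2 for fat and 4 of 6 for mesenchyme were measured, among which Ptprc, Pecam1 and Adipoq were not above background on both arrays. In these 7 measured markers the scaled signals stayed at or below 0.30 in Pla2g4c siRNA cells and 0.42 in control cells. The epithelial Krt8 and Krt19 did not exceed these levels either.

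Across the 80 measured members the median difference was -0.16, with 62 lower and 18 higher in Pla2g4c siRNA cells, but the median was 0.08 under quantile normalization, 0.06 under cyclic loess and 0.38 when scaled to spike-in RNAs. Over all 9026 named genes 51.0% were lower, with a median of -0.01. By complex the median difference was -0.31 for complex IV, -0.21 for complex III and -0.21 for complex V, against -0.05 for the complex I subunits, -0.0042 for its assembly factors and 0.02 for complex II. These signs also depended on the scaling, since complexes IV and V had positive medians under quantile normalization, complex V also under cyclic loess, and all 3 of the lowest did with spike-in scaling. Of the members, 34 were lower and 7 higher by more than the software error, shares for which all genes gave 29.1% and 28.0%.

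**Figure D1:**
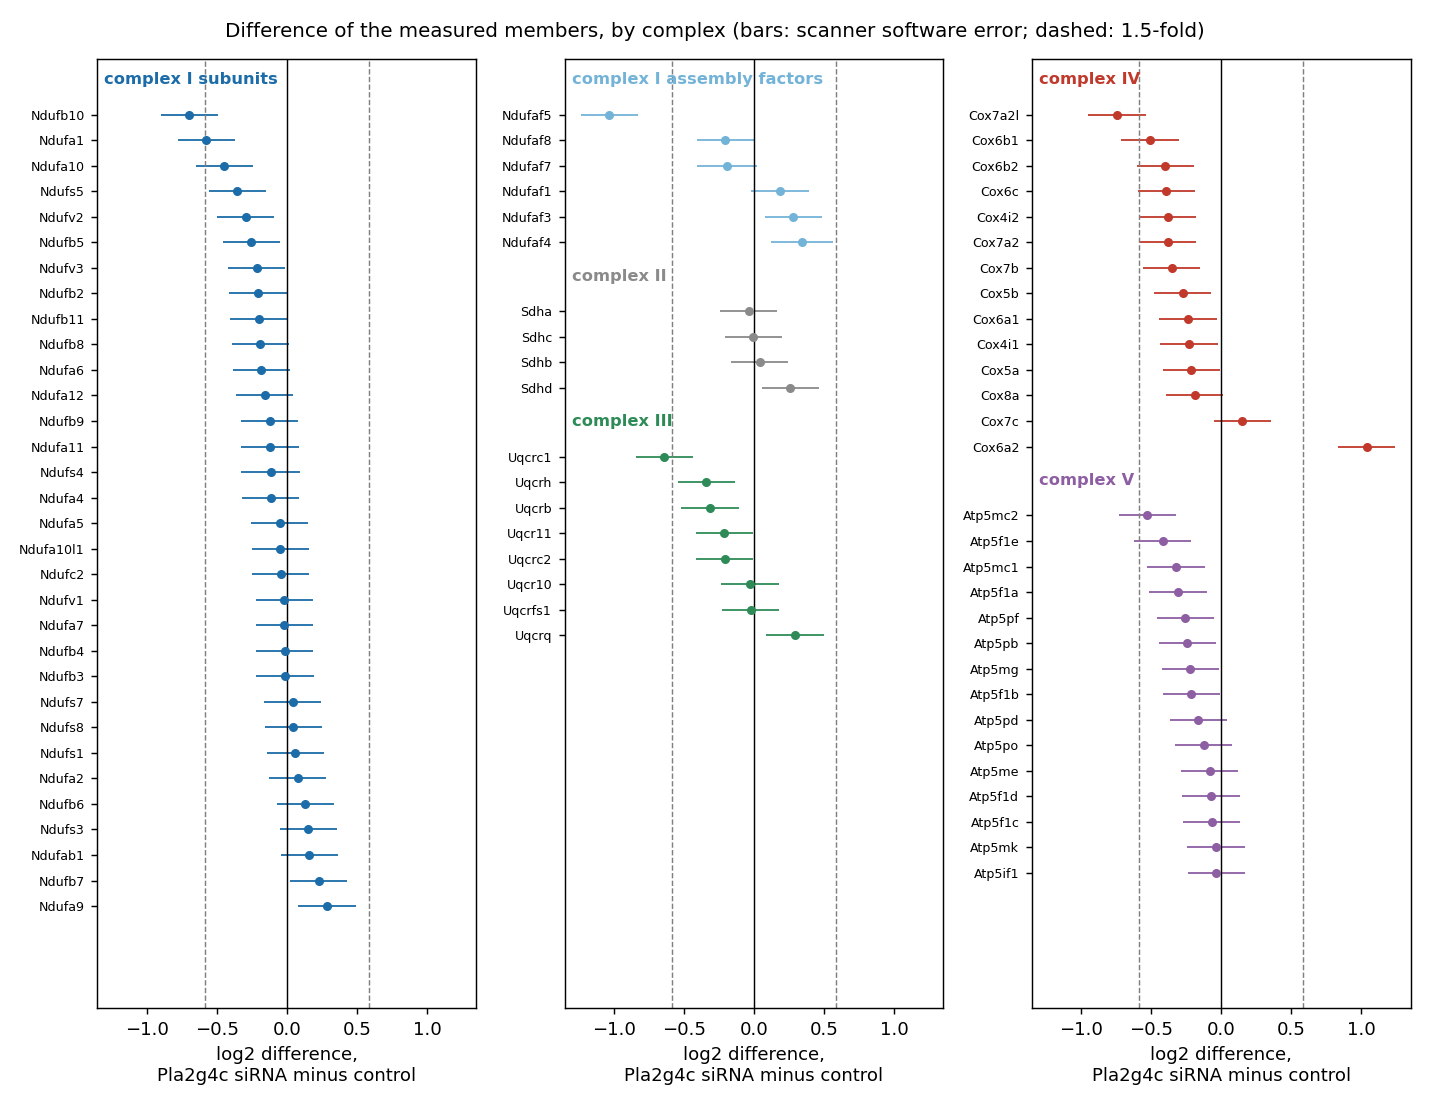
Log2 difference of the Pla2g4c siRNA array over the control array for the measured members, 1 of them not drawn, grouped by complex. Points are gene values, bars the scanner software's error, and dashed lines 1.5-fold. All 15 complex V genes and 12 of 14 complex IV genes lie left of 0, the complex I core genes lie near 0, and Cox6a2 and Ndufaf5 lie farthest out.

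Most members were bright, and the brightest were mostly lower. Of the 80, 51 belonged to the brightest decile of all named genes, where 66.2% of the 903 genes were lower and the median was -0.14. In that decile 47 of the 51 members were lower, with a median of -0.20. By complex, the medians there were -0.14 for 20 complex I subunits, of which 17 were lower, and -0.21 for 5 complex III genes. They were -0.27 for 9 complex IV genes and -0.21 for 15 complex V genes. Only 1 assembly factor of complex I (-0.20) and 1 complex II gene (0.26) were that bright. Without the members and the cytosolic ribosomal proteins, the brightest decile still had a median of -0.10 over 777 genes. Among the 15 members of the next decile 8 were lower, with a median of -0.01 against -0.03 over all 902 genes there. In the eighth decile 3 of 6 members were lower, with a median of -0.13 against 0.02 over all genes there. In deciles 1 to 7 it was 4 of 8, with a median of 0.07 against 0.01, so the members' medians did not follow signal in steady order. The part that signal level has in the members' values was not tested. The members' median was 0.08 against 0.01 over all genes after quantile normalization, and 0.06 against 0.02 after cyclic loess.

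**Figure D2:**
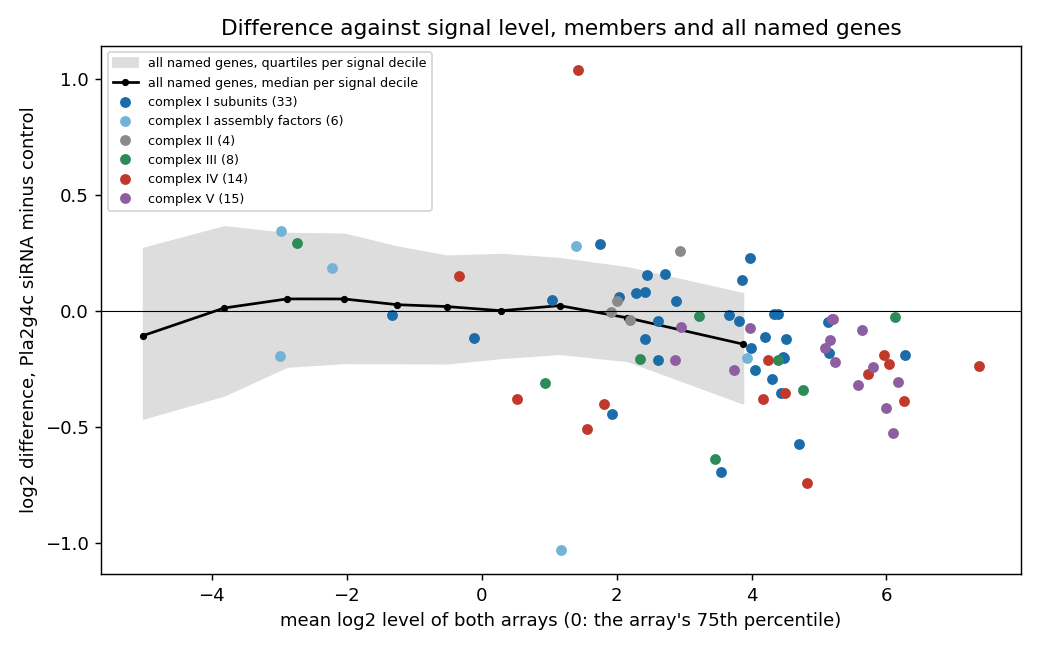
Log2 difference (vertical) against the mean log2 level of both arrays (horizontal, 0 at the array's 75th percentile). Coloured points are the 80 members by complex, the black line joins the medians of all named genes in 10 bins of signal, and the grey band spans their quartiles. The line bends down to -0.14 in the brightest bin, which holds 51 of the members.

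Spots of the same probe gave the technical spread within an array. Of 100 measured member probes 76 had at least 2 spots. In 53 of them (69.7%) every spot of the Pla2g4c siRNA array lay below every spot of the control array, and in 12 (15.8%) above. Over all named probes with at least 2 spots these shares were 39.2% and 38.8%. For 11 member probes the spots of the arrays overlapped.

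At least 1.5-fold lower were 4 of the 80 members, Ndufaf5, Cox7a2l, Ndufb10 and Uqcrc1, while 10.3% of all genes were. At least 1.5-fold higher was 1 member, Cox6a2, while 8.69% of all genes were, and in either direction 19.0% of all genes were. The members therefore held a smaller share of called genes than the whole array. Among probes above the median signal, 5 of 76 members were at least 1.5-fold lower and 1 higher. Of the 4950 genes there, 8.59% and 5.58% were. The part that signal level has in these shares was not tested.

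Ndufaf5 encodes an arginine hydroxylase that acts on a complex I subunit during assembly. Its 9 spots ranged from 1.41 to 1.66 in Pla2g4c siRNA cells and from 2.98 to 3.39 in control cells. No spot overlapped. The gene was 2.05-fold lower in Pla2g4c siRNA cells (-1.03 ± 0.20), the only member past 2-fold in that direction under this scaling, where 3.05% of all genes were. Under the other processings it stayed between -1.04 and -0.85, except for -0.49 with spike-in scaling.

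Cox6a2 encodes the isoform of subunit VIa of cytochrome c oxidase known from heart and skeletal muscle. Both spots were high in Pla2g4c siRNA cells, with 3.83 and 3.86, and low in control cells, with 1.83 and 1.92. This made a 2.05-fold higher signal (1.04 ± 0.20), a size past 2-fold that 2.91% of all genes reached in that direction, and the difference lay between 1.03 and 1.58 under all 10 other processings. Its counterpart Cox6a1, the isoform of most tissues, had 152.1 in Pla2g4c siRNA cells and 179.3 in control cells (-0.24 ± 0.20), so that the isoform genes differed in opposite directions relative to the 75th percentile.

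Cox7a2l, a factor that joins complexes III and IV into supercomplexes, had scaled signals of 21.6 and 22.0 in Pla2g4c siRNA cells and 36.1 and 37.0 in control cells (-0.74 ± 0.20). The spots did not overlap, and the gene was 1.67-fold lower. Ndufb10, an accessory subunit of the membrane arm of complex I, was 1.62-fold lower (-0.70 ± 0.20). Its first probe had 12.1 and 12.9 in Pla2g4c siRNA cells and 18.9 and 19.2 in control cells, and its second probe, with a single spot, had 6.79 and 11.7.

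Uqcrc1, a core protein of complex III, had 8.70 and 8.86 in Pla2g4c siRNA cells and 13.6 and 13.8 in control cells, again without overlap (-0.64 ± 0.20, 1.56-fold lower). These 3 genes were below 0 under every processing tried but did not always reach 1.5-fold. After quantile normalization and after cyclic loess Cox7a2l was at -0.45 and -0.50, Ndufb10 at -0.58 and -0.53, and Uqcrc1 at -0.53 and -0.49. With spike-in scaling they were -0.20, -0.16 and -0.10. In the authors' deposited table Uqcrc1 also missed 1.5-fold, at -0.51, so that it passed under 6 of the 10 other processings.

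**Figure D3:**
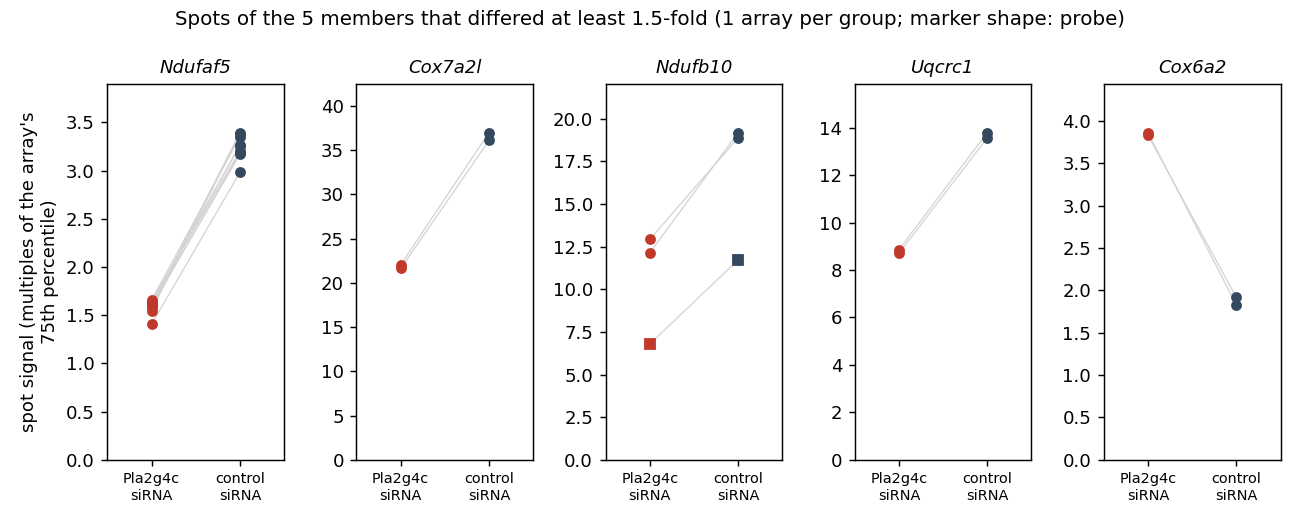
Scaled signal of every spot (vertical, multiples of the array's 75th percentile, axes starting at 0 and scaled per gene) for the 5 members that differed at least 1.5-fold, Pla2g4c siRNA left and control siRNA right. Marker shapes are probes and grey lines join the same spot position. In each gene, the spots of a probe do not overlap between the arrays.

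The promoters of these 5 genes are shown because they are the called members, and because nuclear oxidative phosphorylation genes are known to be bound by the factors NRF1, GABPA and YY1. Each window runs from 250 bases before to 50 after the RefSeq transcription start (build GRCr8) and is written 5′ to 3′ on the gene's strand. Capitals mark matches on either strand to GCGCANGCG (NRF1 core), CCGGAAGT (the ETS site that GABPA binds) or AAGATGGCG (YY1). The NRF1 letters are nearly palindromic, so that 1 site can give overlapping matches, as in Ndufaf5.
Ndufaf5 (chr3:147961362-147961661, plus strand): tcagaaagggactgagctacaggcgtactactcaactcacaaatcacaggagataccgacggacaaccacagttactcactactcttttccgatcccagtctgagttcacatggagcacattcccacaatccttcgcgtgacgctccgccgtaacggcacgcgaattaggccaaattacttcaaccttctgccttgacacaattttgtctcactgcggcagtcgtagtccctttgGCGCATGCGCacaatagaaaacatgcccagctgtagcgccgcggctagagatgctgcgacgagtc
Cox7a2l (chr6:16936324-16936623, plus strand): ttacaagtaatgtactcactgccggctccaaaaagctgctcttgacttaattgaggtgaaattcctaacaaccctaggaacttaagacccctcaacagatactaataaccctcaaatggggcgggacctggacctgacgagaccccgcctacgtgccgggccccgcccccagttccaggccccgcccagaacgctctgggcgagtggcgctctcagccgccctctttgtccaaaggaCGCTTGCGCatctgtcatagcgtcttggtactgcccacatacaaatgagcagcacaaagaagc
Ndufb10 (chr10:14255917-14256216, minus strand): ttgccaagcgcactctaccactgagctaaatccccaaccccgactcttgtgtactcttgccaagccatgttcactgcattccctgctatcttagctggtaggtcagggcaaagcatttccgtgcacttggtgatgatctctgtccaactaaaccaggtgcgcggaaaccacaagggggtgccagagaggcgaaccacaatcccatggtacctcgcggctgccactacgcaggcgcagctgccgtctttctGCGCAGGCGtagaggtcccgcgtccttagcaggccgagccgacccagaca
Uqcrc1 (chr8:118467973-118468272, plus strand): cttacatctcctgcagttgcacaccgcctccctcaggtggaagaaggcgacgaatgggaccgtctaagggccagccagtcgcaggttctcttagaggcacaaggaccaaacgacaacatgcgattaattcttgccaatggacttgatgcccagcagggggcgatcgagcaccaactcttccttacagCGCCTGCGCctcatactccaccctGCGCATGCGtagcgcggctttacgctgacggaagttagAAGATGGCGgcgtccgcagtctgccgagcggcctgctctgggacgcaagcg
Cox6a2 (chr1:192219667-192219966, minus strand): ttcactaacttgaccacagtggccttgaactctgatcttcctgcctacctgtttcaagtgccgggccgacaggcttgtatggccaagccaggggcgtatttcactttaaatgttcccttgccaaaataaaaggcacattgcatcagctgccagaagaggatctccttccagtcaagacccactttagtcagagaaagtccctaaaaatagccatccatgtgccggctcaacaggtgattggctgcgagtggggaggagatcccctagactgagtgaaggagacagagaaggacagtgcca

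All 4 lower genes had the NRF1 letters in this window and Uqcrc1 also had the YY1 letters, while Cox6a2 had none of these motifs. Of the 73 members with a promoter in the table, 18 (24.7%) held the NRF1 letters, against 13.9% of 7481 measured genes and 8.05% of all 19005 coding promoters. The YY1 letters were in 9 (12.3%), against 3.82% of measured genes and 2.29% of all, and the ETS letters in 7 (9.59%), against 9.36% and 4.99%. Measured members with the NRF1 letters had a median difference of -0.17 (n = 18) and those without had -0.11 (n = 53). For YY1 these medians were -0.18 (n = 9) and -0.12 (n = 62), and for ETS -0.19 (n = 7) and -0.12 (n = 64). A match describes the letters only and is not a measured binding site.

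Complex I takes electrons from NADH, and its redox centres sit in 7 nuclear core subunits. These were near 0, with a median of 0.05 and 5 of 7 above 0. Ndufs1, which holds several iron-sulfur clusters, had spots of 4.16 and 4.18 in Pla2g4c siRNA cells and 3.99 and 4.01 in control cells (0.06 ± 0.20). Ndufs3, a subunit of the peripheral arm, had 5.76 in Pla2g4c siRNA cells and 5.18 in control cells (0.15 ± 0.20). Ndufs7, Ndufs8 and the NADH-binding flavoprotein Ndufv1 differed by 0.04, 0.05 and -0.02. The exception was Ndufv2, an iron-sulfur subunit, with 17.9 in Pla2g4c siRNA cells and 22.0 in control cells (-0.29 ± 0.20). Its 10 spots did not overlap between the arrays, and the authors' deposited values put it at -0.09.

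The 26 accessory subunits of complex I had a median of -0.12, with 21 below 0. Lowest after Ndufb10 were Ndufa1, with 21.4 in Pla2g4c siRNA cells and 31.9 in control cells (-0.57 ± 0.20), and Ndufa10, with 3.29 and 4.47 (-0.45 ± 0.20). Ndufs5 was alike in both of its probes (-0.36 and -0.35). At the other end, Ndufa9, a subunit next to the ubiquinone site, had 3.72 in Pla2g4c siRNA cells and 3.05 in control cells (0.29 ± 0.20, 1 spot), and Ndufb7 had 17.0 and 14.5 (0.23 ± 0.20). Ndufab1, the mitochondrial acyl carrier protein, had 6.93 and 6.21 on 1 spot (0.16 ± 0.20), and its second probe was too dim to count as measured.

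The other accessory subunits lay between -0.25 and 0.13. Ndufa4, named for complex I but later assigned to complex IV, differed by -0.11 ± 0.20. Ndufa10 and the similar gene Ndufa10l1, with 6.02 in Pla2g4c siRNA cells and 6.21 in control cells (-0.04 ± 0.20), were not alike in size. Ndufb4 was the single member whose probes differed in sign, at -0.04 and 0.01. Under quantile normalization 11 of the 33 complex I subunits were lower, under cyclic loess 10 and in the deposited values 13, against 23 here.

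The 6 measured assembly factors of complex I went both ways. Ndufaf4, which helps build the peripheral arm, had higher signals in all 4 probes, between 0.17 and 0.52, and a mean of 0.34 ± 0.22. The probes with the higher values were dim, at scaled signals of 0.06 to 0.09 in Pla2g4c siRNA cells and 0.04 to 0.07 in control cells, and the gene was 0.02 under normexp background correction. Ndufaf3 had 2.89 in Pla2g4c siRNA cells and 2.38 in control cells (0.28 ± 0.20), and Ndufaf1 had 0.23 and 0.20 (0.19 ± 0.21). Ndufaf8 (-0.20 ± 0.20) and Ndufaf7, a methyltransferase that acts on a complex I subunit (-0.19 ± 0.22), were below 0. Ndufaf5, described above, was the lowest of the 6.

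Complex II, succinate dehydrogenase, links the citric acid cycle to the chain. Its subunit Sdha, the flavoprotein, had 4.54 in Pla2g4c siRNA cells and 4.66 in control cells (-0.04 ± 0.20). Sdhb, the iron-sulfur subunit, had 4.06 and 3.95 (0.04 ± 0.20), and Sdhc, a membrane anchor, had 3.75 and 3.77 (-0.01 ± 0.20). The spots of these 3 genes overlapped between the arrays. The other anchor, Sdhd, had 10 spots from 7.96 to 8.71 in Pla2g4c siRNA cells and from 6.76 to 7.33 in control cells (0.26 ± 0.20), without overlap. No complex II subunit reached 1.5-fold, which 19.0% of all genes did in either direction.

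Complex III passes electrons from ubiquinol to cytochrome c. Of its 8 measured genes 7 were lower, and 5, 4, 1 and 5 were lower under quantile normalization, cyclic loess, spike-in scaling and in the deposited values. Beside Uqcrc1, the other core protein Uqcrc2 had 4.74 in Pla2g4c siRNA cells and 5.48 in control cells (-0.21 ± 0.20). The Rieske iron-sulfur protein Uqcrfs1, a catalytic subunit, had 9.22 and 9.36 (-0.02 ± 0.20), with overlapping spots. Among the small subunits, Uqcrh, the hinge protein, had 24.1 in Pla2g4c siRNA cells and 30.6 in control cells (-0.34 ± 0.20). Uqcrb was lower by a like amount in a dim and a bright probe (-0.35 and -0.28), and the 3 probes of Uqcr11 ranged from -0.37 to -0.09. Uqcr10 differed by -0.03, and Uqcrq, dim at 0.166 and 0.135, by 0.29 ± 0.21 on 1 spot.

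Complex IV, cytochrome c oxidase, hands electrons to oxygen, and its nuclear subunits surround a core encoded in mitochondrial DNA. Of the 10 common subunits 9 were lower, with a median of -0.26. By more than the software error 8 were lower, where 29.1% of all genes were. In the whole complex 12 of 14 genes were lower here and in the deposited values, but 7, 8 and 1 under quantile normalization, cyclic loess and spike-in scaling. Lowest was Cox6b1, which contacts cytochrome c, with 3 probes of 1 spot each at -0.63, -0.55 and -0.35. Cox6c had 66.8 in Pla2g4c siRNA cells and 87.6 in control cells (-0.39 ± 0.20), and a probe of its pseudogene Cox6c-ps1 had 1.12 and 1.38 (-0.31 ± 0.20).

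Cox7a2 (-0.38 ± 0.20) had both probes lower, at -0.36 and -0.40, and the 10 spots of Cox7b (-0.35 ± 0.20) lay below those of the control array. Cox4i1, a regulatory subunit at which ATP binds, had 60.4 in Pla2g4c siRNA cells and 70.8 in control cells (-0.23 ± 0.20). Cox5b, Cox5a and Cox8a differed by -0.27, -0.21 and -0.19. Cox7c had 0.84 and 0.75 on 1 spot (0.15 ± 0.20) and was the common subunit above 0.

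The alternative isoforms of complex IV, found in particular tissues or conditions, were not alike. Cox4i2, an isoform known from lung and from low oxygen, had 1.26 in Pla2g4c siRNA cells and 1.64 in control cells (-0.38 ± 0.20), lower as Cox4i1 was. Cox6b2, a testis isoform, had 3.06 and 4.04 on 1 spot (-0.40 ± 0.20), lower as Cox6b1 was. Cox8b, the heart and muscle isoform, and Cox8c, a testis isoform, gave no signal well above background in either sample. In these scaled signals Cox6a2 was thus the one measured alternative isoform that was higher. With spike-in scaling Cox4i2 (0.16) and Cox6b2 (0.14) were also higher, as were Cox4i1 (0.31) and Cox6b1 (0.03). Under the other processings Cox4i2 and Cox6b2 stayed lower. Cox4i1 did not, at 0.26 under quantile normalization and 0.10 under cyclic loess, where Cox4i2 had -0.39 and -0.40.

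Complex V, the ATP synthase, had all 15 measured genes below 0. Of these, 8 were so by more than the software error and 0 past 1.5-fold, where 29.1% and 10.3% of all genes were. The direction depended on the scaling, since 10 were lower in the deposited values, 5 under cyclic loess, 3 under quantile normalization and 0 with spike-in scaling. All 15 genes were in the brightest decile. Lowest was Atp5mc2, which encodes the c-ring subunit through which protons pass, at -0.53 ± 0.20. Its probes had 62.6 and 51.9 in Pla2g4c siRNA cells and 94.2 and 71.7 in control cells (-0.59 and -0.46). Atp5mc1, which encodes the same mature protein, had 42.5 and 53.2 (-0.32 ± 0.20).

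In the catalytic F1 head, Atp5f1e had 55.3 in Pla2g4c siRNA cells and 73.9 in control cells (-0.42 ± 0.20), and the alpha subunit Atp5f1a had 64.8 and 80.2 (-0.31 ± 0.20). The beta subunit Atp5f1b, which holds the catalytic sites, had 6.78 and 7.86 (-0.21 ± 0.20), and Atp5f1d and Atp5f1c both differed by -0.07. The deposited values put Atp5f1e at -0.21. In the peripheral stalk, Atp5pf (-0.26), Atp5pb (-0.24), Atp5pd (-0.16) and Atp5po (-0.12) spanned a narrow range. Of the small membrane subunits Atp5mg was -0.22, Atp5me -0.08 and Atp5mk -0.04. The inhibitor Atp5if1, which binds the enzyme when the gradient is lost, had spots of 35.3 and 36.6 in Pla2g4c siRNA cells and 35.7 and 38.0 in control cells (-0.04 ± 0.20), which overlapped.

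**Figure D4:**
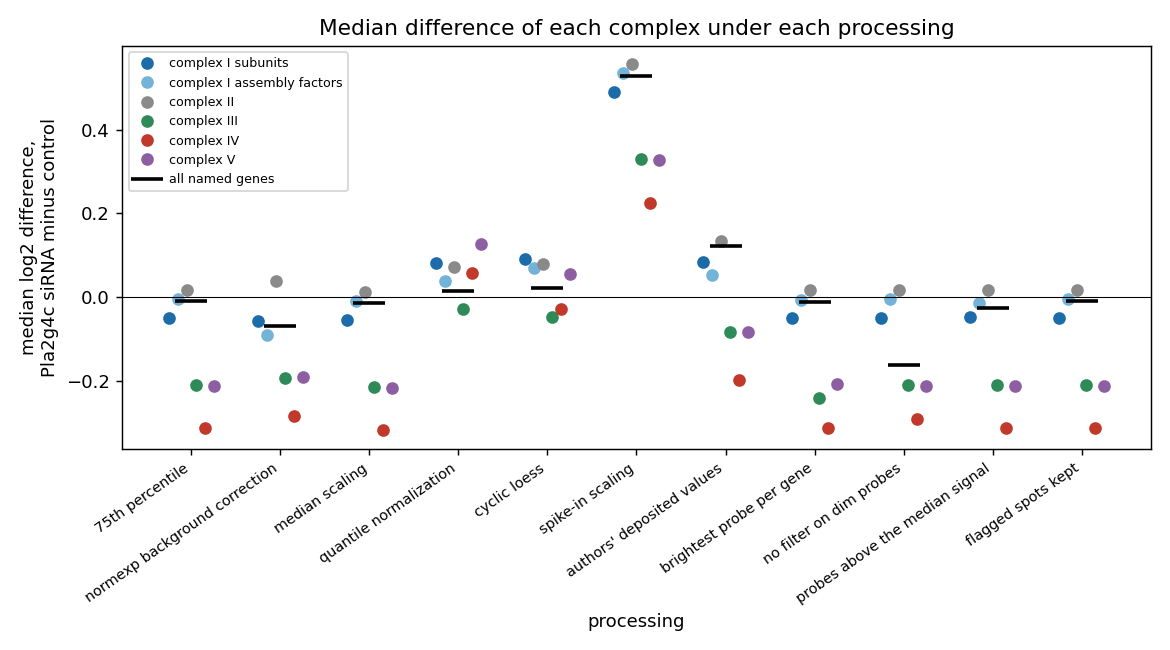
Median log2 difference of each complex (coloured points) and of all named genes (black bars) under the 75th percentile scaling and 10 other processings. Complex IV has the lowest median, for example -0.31 at the 75th percentile and 0.22 with spike-in scaling, except under quantile normalization and cyclic loess, where complex III does with -0.03 and -0.05.

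Genes that serve the complexes but fall outside the symbol rule were centred near 0. The assembly and carrier list had a median of 0.0032 over 28 measured genes, with 3 at least 1.5-fold lower and 1 higher, where 10.3% and 8.69% of all genes were. The first share was near that of all genes. The complex I assembly genes Timmdc1 (0.31 in Pla2g4c siRNA cells and 0.50 in control cells, -0.67 ± 0.20) and Nubpl (0.39 and 0.62, -0.66 ± 0.20) were lowest, followed by the copper chaperone family gene Cox19 (-0.65 ± 0.20). Uqcc1, an assembly factor of complex III, was highest, with 0.75 and 0.48 (0.65 ± 0.20), followed by Surf1, an assembly factor of complex IV (0.30 ± 0.20). The electron carrier Cycs, cytochrome c, had 7.64 and 7.75 (-0.02 ± 0.20).

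Of the regulators of mitochondrial transcription and biogenesis 18 were measured, with a median of -0.07. Of these 18, 1 was at least 1.5-fold lower and 1 higher, where 10.3% and 8.69% of all genes were. Polg, the catalytic subunit of the mitochondrial DNA polymerase, had 1.77 in Pla2g4c siRNA cells and 0.70 in control cells (1.34 ± 0.20), and Polrmt, the mitochondrial RNA polymerase, followed at 0.18 ± 0.20. Mterf1, a mitochondrial transcription terminator, had 3.38 and 5.24 (-0.63 ± 0.20), and the coactivator Pprc1 had 1.78 and 2.60 (-0.55 ± 0.20). The factors whose motifs were searched differed by less than the software error, with Nrf1 at -0.06 ± 0.20, Gabpa at -0.16 ± 0.21 and Yy1 at -0.18 ± 0.20. Tfam, which packages mitochondrial DNA, differed by -0.10 ± 0.20.

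The citric acid cycle and pyruvate dehydrogenase list had a median of -0.00073 over 21 genes. At least 1.5-fold lower were 0 of them, where 10.3% of all genes were. Dlat, the E2 subunit of pyruvate dehydrogenase, had 1.26 in Pla2g4c siRNA cells and 0.88 in control cells (0.52 ± 0.20). The isocitrate dehydrogenase genes Idh3a and Idh3g were lowest, at -0.20 and -0.18. The inner membrane carriers, porins and uncouplers had a median of 0.15 over 13 genes. Vdac1, the main porin, had 35.8 in Pla2g4c siRNA cells and 49.6 in control cells (-0.47 ± 0.20), and the phosphate carrier Slc25a3 (-0.35 ± 0.20), which feeds complex V, was also low. The dicarboxylate carrier Slc25a10 (0.65 ± 0.20) and the citrate carrier Slc25a1 (0.43 ± 0.20) were highest.

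Beside other large families and under the 75th percentile scaling, the members lay between the extremes. The 80 members had 77.5% of genes lower and a median of -0.16. All 77 measured cytosolic ribosomal protein genes were lower under the 75th percentile scaling, with a median of -0.65 and 53 at least 1.5-fold lower, whereas 33 of 65 mitochondrial ribosomal protein genes were lower (median -0.01) and 17 of 36 proteasome genes (median 0.01). With 1 array per group the differences between these families were not tested, and the families were not matched for signal level.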

How the data were processed

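Per the labels, Cy3-labelled cRNA of 2 samples was hybridised to 1-colour Agilent rat arrays. The scanner intensities come from Agilent Feature Extraction as run by the authors (10.10 per the submitters' processing notes, 10.10.1.1 per the file headers), which subtracted background and detrended within each array, with no step between arrays per the file headers. The flags for outliers and background were used as deposited (other values of 0 or 1). The deposited table of normalized intensities does not name its method.

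Signals were divided by the 75th percentile of 58717 gene spots and put on the log2 scale. This log2 value was computed from the deposited intensities. Spots flagged on either array were left out (1 spot of a member probe), the spots of a probe were averaged, and a gene is the mean over its measured probes. Of 30367 probes 18006 (59.3%) were named through RefSeq accessions (GRCr8). The fold threshold was 1.5-fold.

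Without a matched probe, and not analysed here, were 36 of 118 coding genes that the symbol rule finds in RefSeq, among them Ndufs6, Ndufa13 and Atp5mc3. RefSeq lists named pseudogenes for 38 member genes, so probes may also take up signal from copies, which was not tested. Members and lists were chosen with earlier results of these data known. Any member could be named, and of each related list the 2 highest and 2 lowest. Cox19, Cycs, Tfam, Nrf1, Gabpa and Yy1 were added after their values were seen. Values of 2 genes are not reported here.

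The alternatives were normexp background correction (offset 50, on the median spot and background signals), median scaling, quantile normalization, cyclic loess, scaling to 7 spike-in probes, the authors' deposited table, taking only a gene's brightest probe, keeping dim probes, keeping only probes brighter than the median, keeping flagged spots, a 2-fold threshold, probes in place of genes and subunits alone. Values with the pseudogene and complex IV without its alternative isoforms were chosen after seeing the data. Normalization ran in limma 3.58.1 (R 4.3.3), and the tables and plots were made with pandas 2.3.3, numpy 2.4.6 and matplotlib 3.10.9 in Python 3.11.15. The steps were tested on simulated data.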

Additional observations from a re-analysis of the deposited data

How the results depend on the processing

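No paired analysis was possible because each group has 1 array. Differences are the Pla2g4c siRNA array over the control array. The choice of scaling decided the sign of most medians. Quantile normalization gave 0.081 for all members, 0.081 for the complex I subunits, 0.038 for their assembly factors, 0.058 for complex IV and 0.13 for complex V, with 29 of 80 members lower and 1 at least 1.5-fold lower. Cyclic loess gave 0.056, 0.090 and 0.069 for the first 3 of these groups, -0.029 for complex IV and 0.055 for complex V, with 30 lower and 1 at least 1.5-fold lower. Spike-in scaling put the median of all 9026 genes at 0.53. It gave 0.38 for all members, 0.49 for the complex I subunits, 0.53 for their assembly factors, 0.56 for complex II, 0.33 for complex III, 0.22 for complex IV and 0.33 for complex V, with 5 lower, 0 at least 1.5-fold lower and 16 at least 1.5-fold higher. The authors' deposited table gave 0.084 for the complex I subunits and 0.051 for their assembly factors, with a median of 0.12 over all genes. At 2-fold, 1 member was lower. The deposited table kept the sign of the other medians but brought them closer to 0, at -0.023 for all members with 43 lower, -0.084 for complex III, -0.085 for complex V and -0.20 for complex IV, except complex II at 0.13. Quantile normalization put complex III at -0.029, and cyclic loess put it at -0.049. The other values of these medians and counts were on the same side of 0 as the reported ones, the medians within the software error and the counts within 1.5 times. Of 796 values of single members under alternatives, 648 moved by less than the software error, 148 by more, and 0 of those called at 1.5-fold turned round. Relative to the median of all genes, that of the members was -0.15 with the 75th percentile, median and spike-in scaling and in the deposited values, -0.06 under normexp, 0.03 under cyclic loess, 0.07 under quantile normalization and 0.0015 with dim probes kept, where the median of all genes was -0.16 and 62.3% were lower. The causes of these changes were not tested. Without replicate arrays, the spread between cultures is unknown.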
